A study of Mus musculus with 4 samples.

Results

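The filaggrin-processing enzymes are 9 genes chosen by name for their role, out of 56493 genes in the deposited count table: the proteases Casp14, Asprv1, Blmh, St14 and Prss8, the peptidylarginine deiminases Padi1, Padi3 and Padi4, and the histidase Hal. All 9 are rows of the table; 7 were counted at least once, and 5 passed the filter on low counts. Expression was measured in the epidermal layer of mouse dorsal skin, in 2 libraries from mice in which Stim1 and Stim2 were knocked out by a Cre recombinase under the keratin 14 promoter (cKO) and 2 libraries from Stim1/2 fl/fl mice, which carry the floxed alleles and whose description names no Cre (control). STIM1 and STIM2 are sensors of the calcium store in the endoplasmic reticulum; when the store empties they trigger calcium entry through the plasma membrane. The keratin 14 promoter is active in keratinocytes of the basal layer and the hair follicle. Cells in the sample that are not keratinocytes, such as immune cells and melanocytes, should keep both genes, which was not checked here. Age, sex, strain background and the number of mice per library are not given in the sources used here, so p-values measure only the spread between these libraries.

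Filaggrin is made in the granular layer as profilaggrin, a long precursor of repeated units that is stored in keratohyalin granules. When the cells cornify, proteases cut the linkers between the units, and the released filaggrin bundles keratin filaments. Deiminases, which need calcium, then convert its arginines to citrulline and loosen it from keratin. Further proteases break it down to free amino acids that hold water in the stratum corneum, and histidase turns the released histidine into urocanic acid, an absorber of ultraviolet light.

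The libraries held 282190 and 118858 counts in cKO replicates 1 and 2, and 200293 and 322426 counts in control replicates 1 and 2. Values are given as raw counts and as CPM, the usual scale of counts relative to library size, here after TMM scaling over the tested genes. A count of 0 allows up to 3 counts, which corresponds to 12.1, 33.7, 16.01 and 9.58 CPM in the same order; such limits and all intervals cover counting error only. Counts of Stim1 were 23 and 6 in cKO and 24 and 62 in control, and those of Stim2 were 0 and 1 and then 3 and 18. Which exons are deleted is not given in the sources used here, and reads from the end of a transcript that lies outside the deleted part do not check the genotype. Counts were found for 8 of 8 basal, 8 of 8 spinous and 10 of 10 granular keratinocyte markers, while 4 of 5 endothelial markers were at 0 in every library. Skeletal muscle markers made up 0.00390% to 0.0101% of a cKO library and 0.101% to 0.141% of a control library, and hair shaft and inner root sheath markers 0.0397% to 0.0412% against 0.146% in both control libraries. Most counts of these hair markers were those of Tchh (99 of 112 and 26 of 49 in cKO, 257 of 293 and 398 of 471 in control). In tissue of this kind, fewer cells of a type and less RNA per cell cannot be told apart.

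Promoter windows, the 250 bases before the annotated start, were matched for 7 of the 9 enzymes, all but St14 and Prss8 (RefSeq, GRCm38.p6). That of Casp14 is shown because this enzyme passed the test, those of Asprv1 and Hal because they were well counted and differed in whether the groups overlapped, and that of Flg, the filaggrin gene, because it encodes the substrate. Capitals mark a TATA box, searched as TATAAA on both strands, and a loose AP-1 pattern, searched on both strands as TGANTCA with N any base.
Casp14, chr10:78718294-78718543, minus strand: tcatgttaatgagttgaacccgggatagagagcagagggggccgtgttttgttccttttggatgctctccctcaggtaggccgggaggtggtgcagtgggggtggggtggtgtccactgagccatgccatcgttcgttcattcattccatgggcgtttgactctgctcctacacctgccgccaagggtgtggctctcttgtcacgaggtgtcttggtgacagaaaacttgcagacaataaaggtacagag
Asprv1, chr6:86627924-86628173, plus strand: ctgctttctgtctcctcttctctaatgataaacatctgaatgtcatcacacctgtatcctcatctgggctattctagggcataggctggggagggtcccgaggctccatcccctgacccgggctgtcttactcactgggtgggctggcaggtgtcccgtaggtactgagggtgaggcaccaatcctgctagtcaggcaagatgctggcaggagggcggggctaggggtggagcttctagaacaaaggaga
Hal, chr10:93488518-93488767, plus strand: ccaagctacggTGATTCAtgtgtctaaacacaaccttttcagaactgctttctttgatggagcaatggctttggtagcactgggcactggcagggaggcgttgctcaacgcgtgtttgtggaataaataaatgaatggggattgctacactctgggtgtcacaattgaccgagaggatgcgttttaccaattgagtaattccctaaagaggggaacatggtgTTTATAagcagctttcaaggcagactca
Flg, chr3:93273296-93273545, plus strand: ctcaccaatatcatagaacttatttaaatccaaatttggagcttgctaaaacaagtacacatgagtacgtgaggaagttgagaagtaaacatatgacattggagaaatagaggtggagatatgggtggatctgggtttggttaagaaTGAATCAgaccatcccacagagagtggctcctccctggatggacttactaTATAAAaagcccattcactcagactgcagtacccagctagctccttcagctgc
The Hal and Flg windows each held 1 TATA box match and 1 match to the loose AP-1 pattern, with no overlap between them, and those of Casp14 and Asprv1 held neither. Over all 32851 promoter windows of the same length, 12.4% held the TATA box and 6.75% the loose AP-1 pattern. Of the other enzymes, Padi4 also held 1 match of each, and Padi1, Padi3 and Blmh held neither. The free middle base of the AP-1 pattern was T in Hal, A in Flg and C in Padi4. The GC content of the Blmh window was 66.8%, against a GC content of 54.4% for Casp14, 56.4% for Asprv1 and 45.6% for Hal. The sequence GGAAA, the core bound by the calcium-regulated factor NFAT, was searched on both strands, was in 55.6% of all windows and was found in none of the 7 enzyme windows. The sequence AACNGGTT, a core of grainyhead-like sites, searched the same way, was in 1.79% of all windows and in none of these 7. The sequence CACCC, a core of KLF sites, was in 52.0% of all windows and in each of the 7, with 1 to 5 matches. A match is a description of these letters only, and their absence says nothing of binding elsewhere.

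Casp14 was the enzyme that changed past the threshold. It encodes caspase-14, a protease of the cornifying epidermis that takes part in filaggrin breakdown, and lies on chromosome 10 from 78547825 to 78554128 on the minus strand, with 2 listed transcripts in 8 exon blocks (ENSMUSG00000005355; positions of genes are those of the deposited table, for which the submitters' processing notes name GRCm39). Casp14 was counted 48 and 11 times in cKO and 0 and 2 times in control. Both cKO libraries were high and the control libraries were at or near 0, with no overlap. Its mean in cKO was 158.9 ± 49.8 CPM (SD, n = 2), against a control mean of 3.19 ± 4.52 CPM (SD, n = 2). With so few control counts the size of the change is poorly bounded: the ratio of the pooled counts per library size was 43.9, with an exact 95% interval of 11.6 to 371. The fitted log2 fold change of Casp14, which depends on the prior count, was 5.19 (standard error, SE, 0.88; Benjamini-Hochberg adjusted p 0.0123 in edgeR's quasi-likelihood test). Among all 4243 tested genes, 28 were called higher in cKO, which is 0.660%, and 8 lower, which is 0.189%. Casp14 lost its call in limma-voom (adjusted p 0.348). Without control replicate 2 its fitted log2 fold change was 7.84, and without cKO replicate 1 it fell under the count filter.

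Asprv1 encodes the skin aspartic protease that cuts the linkers of profilaggrin, and is a gene of 1 exon on chromosome 6 from 86605146 to 86606692 (ENSMUSG00000033508). Its counts were 646 and 108 in cKO and 30 and 253 in control. In CPM these were 2612 and 1214 against 160.1 and 808, so that each cKO library lay above each control library. The means were 1913 ± 989 CPM (SD, n = 2) and 484 ± 458 CPM (SD, n = 2), and the lower cKO value was 1.50-fold the higher control value. Within the control group the libraries differed 5.05-fold, more than the 3.95-fold difference between the group means. The log2 fold change of Asprv1 was 1.97 (SE 0.64) and did not pass the threshold over all genes (edgeR adjusted p 0.298, 0.00847 unadjusted). This value leaned on single libraries: Asprv1 passed the threshold without cKO replicate 2 (log2 fold change 2.42, edgeR adjusted p 0.00264) and without control replicate 2 (3.60, adjusted p 0.000827), and stood at 1.26 without cKO replicate 1 and 1.25 without control replicate 1. It also passed when no count filter was used (edgeR adjusted p 0.0131).

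Blmh encodes bleomycin hydrolase, a cytoplasmic cysteine protease that acts late, on the deiminated fragments, and lies on chromosome 11 from 76815635 to 76878205 with 9 listed transcripts in 13 exon blocks (ENSMUSG00000020840). Its counts were 551 and 303 in cKO, 171 and 459 in control. On the CPM scale these were 2228 and 3405 against 912 and 1466, again with no overlap between groups. The cKO mean was 2817 ± 833 CPM (SD, n = 2) and the control mean 1189 ± 391 CPM (SD, n = 2), a ratio of 2.37. In Blmh, cKO replicate 2 was the higher of the cKO libraries, by 1.53-fold; in Casp14, Asprv1, Hal, Prss8 and St14 it was the lower. The log2 fold change of Blmh was 1.24 (SE 0.45) and did not pass the threshold (edgeR adjusted p 0.417, 0.0166 unadjusted). It ranged from 0.91 to 1.63 with 1 library left out. Among annotated transcripts, those of 6 other genes match a stretch of Blmh (the best at 96.3% identity over 134 bases), and the part of such reads in its counts was not tested.

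Hal encodes histidase, which deaminates the histidine set free from filaggrin, and lies on chromosome 10 from 93324630 to 93355166 with 4 listed transcripts in 21 exon blocks (ENSMUSG00000020017). Its counts were 215 and 36 in cKO, 37 and 188 in control. In CPM these were 869 and 405 against 197.4 and 600.4, so that the groups overlapped: the lower cKO library was below the higher control library. The log2 fold change of Hal was 0.68 (SE 0.55, edgeR adjusted p 0.865). It was 1.73 without control replicate 2 and -0.05 without cKO replicate 1, and it was not past the threshold in any of these.

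The proteases at the head of the cascade were counted at low levels. St14 encodes matriptase, a membrane serine protease that activates prostasin, and Prss8 encodes prostasin, a serine protease anchored to the cell membrane; loss of either is known to impair profilaggrin processing. Prss8 (ENSMUSG00000030800, chromosome 7, 127524888 to 127529276, minus strand) was counted 15 and 4 times in cKO, 2 and 22 times in control. The log2 fold change of Prss8 was 0.33 (SE 0.85, edgeR adjusted p 0.992), and it was 2.28 without control replicate 2 and -0.37 without control replicate 1. Exons of Prss8 share 122 bases with Kat8 on the opposite strand, within the last 500 exonic bases; the use of strand in counting is not given in the sources used here. St14 (ENSMUSG00000031995, chromosome 9, 31000698 to 31043149, minus strand) was counted 11 and 3 times in cKO, 7 and 37 times in control. In CPM St14 was 44.5 and 33.7 against 37.4 and 118.2, with overlapping groups and 1 high library, control replicate 2. St14 did not pass the count filter; fitted without one, its log2 fold change was -1.04 (SE 0.76, edgeR adjusted p 0.911). The pooled count ratio of St14 was 0.474 (exact 95% interval 0.240 to 0.881), an interval that does not hold the difference between libraries.

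The deiminases were at or near 0 in both groups. PADI1 and PADI3 are the isoforms known from epidermis and hair follicle and act on filaggrin and, in the follicle, on trichohyalin; PADI4 is known mainly from white blood cells, where it citrullinates histones. Padi1 (ENSMUSG00000025329, chromosome 4, 140540294 to 140573089, minus strand) and Padi3 (ENSMUSG00000025328, chromosome 4, 140512676 to 140537959, minus strand) had 0 counts in all 4 libraries. Padi4 (ENSMUSG00000025330, chromosome 4, 140473176 to 140501547, minus strand) was counted 1 time in each replicate 2, that of cKO and that of control, and 0 times in the others. For Padi1 and Padi3, a count of 0 allows up to 9.58 CPM in control replicate 2 and up to 33.7 CPM in cKO replicate 2. With so few counts no fold is given for the deiminases. Of the other deiminases, Padi2 had 1 count in cKO replicate 1 and Padi6 had 0 in every library. Exons of Padi1 share 1200 bases with the non-coding gene Gm13032 on the opposite strand, 289 of them within the last 500 exonic bases, and Gm13032 also had 0 counts. The part of this overlap in the value of Padi1 was not tested; Padi3 and Padi4 share no exon bases with another gene. Of 13 neutrophil markers, 9, among them Ly6g, Csf3r and Mpo, were at 0 in every library, and the 13 together made up 0.00150% to 0.00757% of a library.

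**Figure D1:**
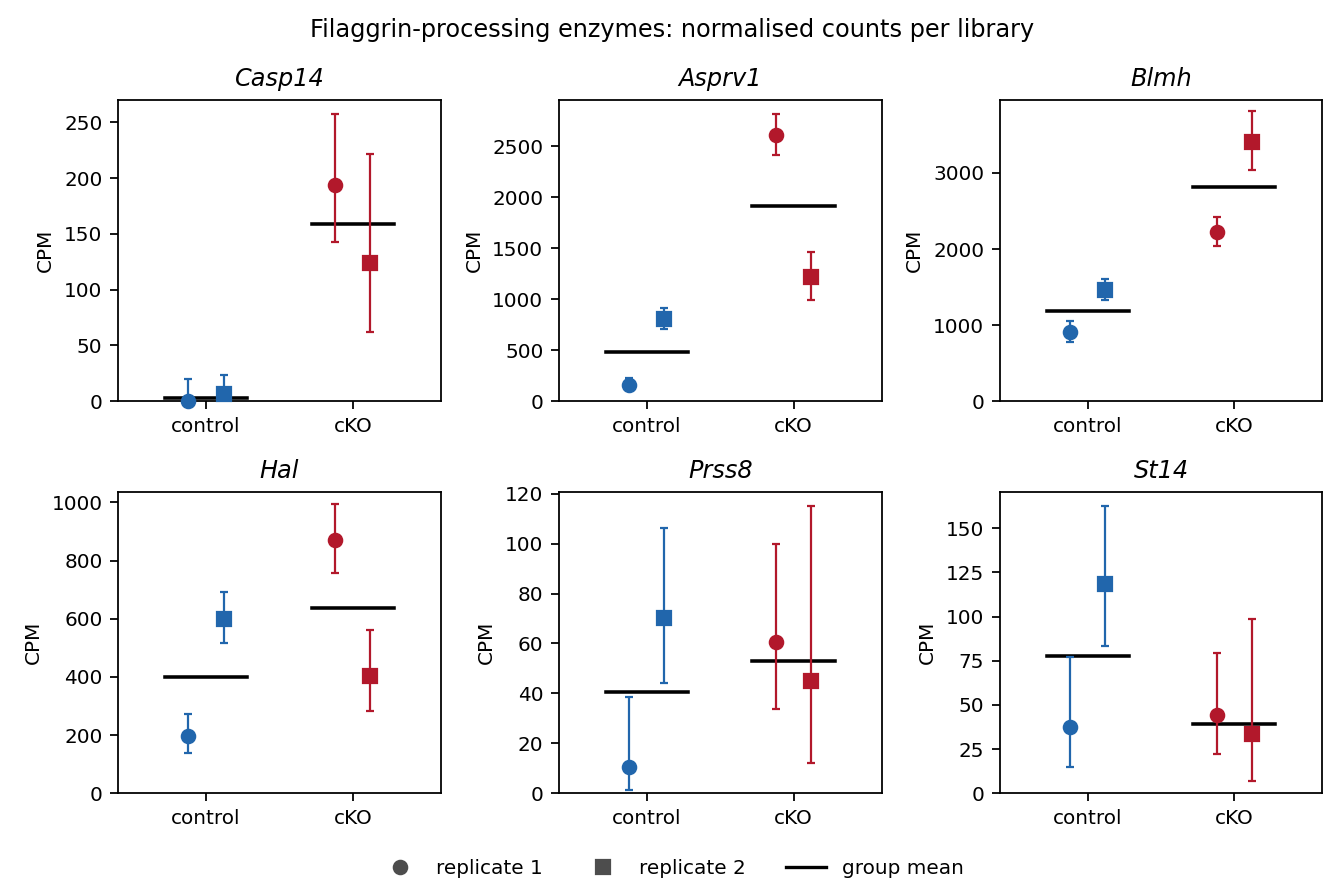
Normalised counts (CPM, linear axis from 0) of the 6 enzymes with more than 2 counts in all, by library. Circles are replicate 1, squares replicate 2, bars exact 95% Poisson intervals of the count and black lines group means; groups are separate for Casp14, Asprv1 and Blmh and overlap for Hal, Prss8 and St14, and control replicate 1 is the lowest library for 5 of these 6 genes.

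Across the enzymes, both cKO values lay above both control values in Casp14, Asprv1 and Blmh, while Hal and Prss8 overlapped. This separation was found in 18.9% of all tested genes, and separation in the other direction, found in 19.6%, was seen in none of the 5 tested enzymes. Of these 5, Casp14 was called higher and the other 4 were not called. Before adjustment, 3 of the 5 (Casp14, Asprv1 and Blmh) had an edgeR p under 0.05 and were higher, and 0 were lower. Over all tested genes these shares were 4.22% and 4.17%. DESeq2 called 1 of the 5 and limma-voom 0, where over all 4243 tested genes they called 35 and 12 higher and 8 and 3 lower. These 5 are the enzymes left by the count filter. Casp14 passed it through its cKO counts, and St14, with a pooled count ratio of 0.474, did not pass. The enzymes were also chosen with earlier results of these data known, so these counts are no test of the set. Summed over the 9 genes, the share of library counts was 0.527% (Wilson interval at 95%, 0.501% to 0.554%) and 0.392% (0.358% to 0.429%) for cKO replicates 1 and 2. For control replicates 1 and 2 it was 0.123% (0.109% to 0.140%) and 0.298% (0.280% to 0.318%). These sums consist mostly of Blmh and Asprv1: Blmh made up 37.1% and 65.0% of the sum in cKO and 69.2% and 47.7% in control, Asprv1 made up 43.5% and 23.2% against 12.1% and 26.3%, and the 6 genes other than Blmh, Asprv1 and Hal made up 3.64% to 6.44%.

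**Figure D2:**
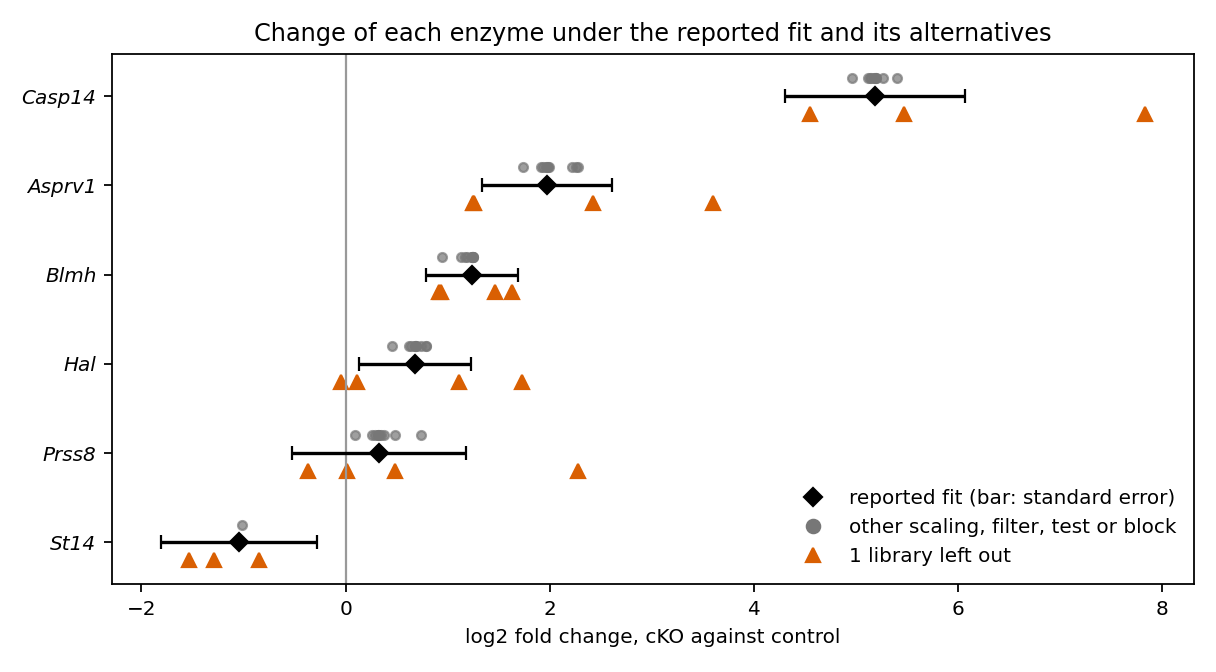
Log2 fold change of each enzyme, cKO against control, in the reported fit (black diamonds, bar: standard error), under other scalings, filters, tests and blocks (grey circles) and with 1 library left out (orange triangles); for St14 the fit without a count filter is shown. Values of Hal and Prss8 fall on both sides of 0 when a library is left out, and those of Casp14, Asprv1 and Blmh stay above 0.

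The enzymes were then set against their substrate. Flg (ENSMUSG00000102439) was counted 2218 and 479 times in cKO, 20 and 98 times in control (log2 fold change 5.07, SE 0.62, edgeR adjusted p 0.000593). A ratio of counts within a library does not depend on how libraries are scaled. Casp14 had 2.16 counts per 100 counts of Flg in cKO replicate 1 and 2.30 in cKO replicate 2, against 2.04 in control replicate 2; their exact 95% intervals were 1.59 to 2.88, 1.14 to 4.15 and 0.244 to 7.57. In control replicate 1, with 0 Casp14 and 20 Flg counts, the interval reached 20.3 and gives no information. The interval of control replicate 2 spans those of both cKO libraries. The other well-counted enzymes had lower ratios to Flg in cKO. Asprv1 had 29.1 and 22.5 counts per 100 Flg counts in cKO and 150.0 and 258 in control. Hal had 9.69 and 7.52 against 185.0 and 191.8, and Blmh had 24.8 and 63.3 against 855.0 and 468. In these 3 genes the groups did not overlap, as follows from the rise of Flg and their smaller changes. With 2 libraries per group the smallest two-sided p that an exact permutation test can give is 0.333, so no test of these ratios was made, and these ratios were chosen after the values were seen.

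A second ratio used markers of the granular layer other than Flg (Lor, Ivl, Flg2, Hrnr, Tgm3, Lce1a1, Lce1b, Cdsn and Klk7). These 9 made up 1.10% and 0.575% of the cKO libraries and 0.310% and 1.04% of the control libraries, so that control replicate 1 was also the lowest library for the layer in which filaggrin is made. Hal had 6.94 and 5.27 counts per 100 counts of these markers in cKO and 5.96 and 5.61 in control. The ratio of Hal thus kept within 1.32-fold over the 4 libraries, and the cKO values lay on both sides of the control values. This narrow range depends on the markers used, among them Hrnr, itself called higher in cKO. Without Lor, a choice made after the values were seen, Hal had 10.9 and 7.02 against 7.72 and 9.64. Prss8, at 0.484 and 0.586 against 0.322 and 0.657, also overlapped. Blmh did not follow the markers, at 17.8 and 44.4 in cKO and 27.5 and 13.7 in control, and its groups overlapped on this scale. Asprv1 had 20.9 and 15.8 against 4.83 and 7.55, and each cKO interval (19.1 to 22.7 and 12.8 to 19.4) lay above each control interval (3.23 to 6.97 and 6.62 to 8.58). Casp14 had 1.55 and 1.61 against 0 and 0.0597, also with separate groups. St14 had 0.355 and 0.439 against 1.13 and 1.10, lower in both cKO libraries, with intervals of 0.177 to 0.636 and 0.0904 to 1.29 in cKO and 0.451 to 2.34 and 0.776 to 1.53 in control that overlap. The share of granular cells in each library was not measured, and its part in the changes of Asprv1 and Casp14 was not tested.

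**Figure D3:**
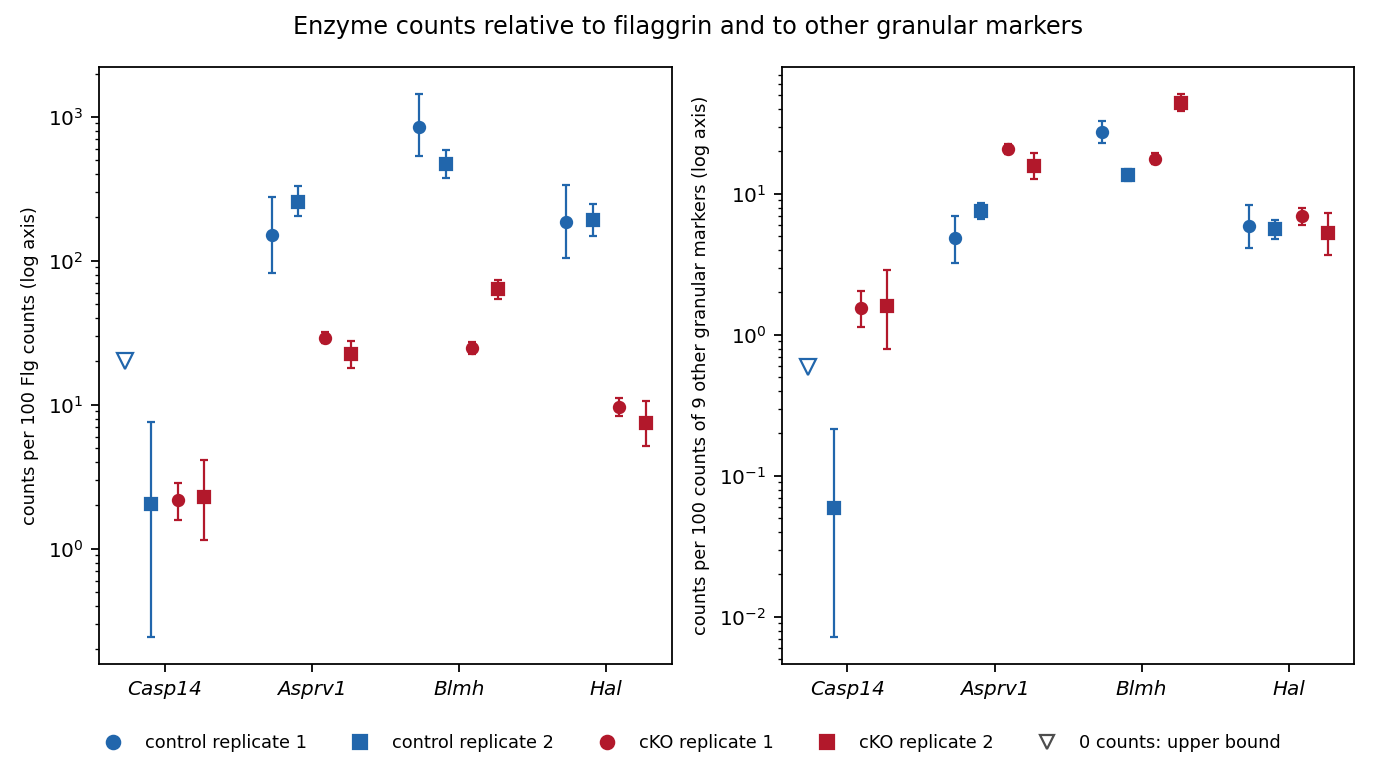
Counts of Casp14, Asprv1, Blmh and Hal per 100 counts of Flg (left) and per 100 counts of 9 other granular markers (right), by library, on log axes; bars are exact 95% intervals and open triangles mark the upper bound where Casp14 had 0 counts. Relative to Flg, Asprv1, Blmh and Hal were lower in both cKO libraries; relative to the other markers, Hal lay between 5.27 and 6.94 in all 4 libraries and Asprv1 and Casp14 were higher in both cKO libraries.

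The genes whose profile over the 4 libraries was most like that of each enzyme were found by the root mean square difference of log2(CPM + 1), after each gene was centred on its own mean. For Casp14 these were Lce1j (difference 0.38), a cornified envelope gene, Flg (0.56) and the pseudogene Rplp0-ps1 (0.85), against a median of 3.16 over the 4242 genes compared. For Asprv1 they were Tmprss13 (0.16), a membrane serine protease, Twf1 (0.22), an actin-binding protein, and Lce1a1 (0.22), another cornified envelope gene. Prss8 was most like Stxbp5 (0.10), Flg2 (0.14), which encodes filaggrin-2, and Dsc1 (0.16), a desmosomal cadherin of the upper layers. Blmh was most like Bzw2 (0.05), Dlg3 (0.06) and Mlf2 (0.06), and Hal most like Cramp1 (0.04), Ubap2 (0.07) and Pgam1 (0.07). Among the enzymes themselves, Hal and Prss8 were the closest pair (0.43) and Casp14 and Hal the most distant (2.58). Likeness over 4 libraries is a description, and several of the genes listed had fewer than 30 counts in every library.

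The other genes of the pathway were described from lists of substrates, further proteases, inhibitors and regulators. Of 7 genes of the filaggrin family (fused S100 proteins), 6 were tested. Flg and Hrnr were called higher and Tchhl1 lower, and the other 3 did not pass the threshold. Over all tested genes 0.660% were called higher and 0.189% lower. The median log2 fold change of the 6 was 1.81, against 0.01 over all tested genes, with 4 values above 0 and 2 below. Rptn passed the count filter through its cKO counts. The list was also chosen with earlier results of these data known, so these counts are no test of it. Hrnr, which encodes hornerin, a cornified envelope protein, had 403 and 43 counts in cKO against 16 and 56 (log2 fold change 2.99, SE 0.60, edgeR adjusted p 0.0329), and lost its call without cKO replicate 1 (1.79, edgeR adjusted p 0.0729). Tchhl1, a relative of trichohyalin, had 43 and 13 against 158 and 258 (log2 fold change -2.36, edgeR adjusted p 0.0219). Tchh, trichohyalin, the deiminase substrate of the hair follicle, had 99 and 26 against 257 and 398 (-1.91, edgeR adjusted p 0.0677; DESeq2 and limma-voom called it). Rptn, repetin, had 15 and 12 against 0 and 4 (3.51, edgeR adjusted p 0.219), and Flg2 had 441 and 117 against 63 and 515 (0.64, edgeR adjusted p 0.898). Tchh is itself among the hair markers given above and supplied most of their counts, so its lower values are not separate from theirs. The part of hair cells in the values of Tchhl1 and Tchh was not tested.

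Among 25 further proteases of profilaggrin and corneocytes, 11 were tested. Klk6, a kallikrein, was the gene of this list that rose; it was counted 61 and 32 times in cKO and 0 times in control, at least 23.7-fold higher with 3 counts per control library as the limit (edgeR adjusted p 0.000444; 0.152 with limma-voom). The other 10 did not pass the threshold. In 8 of the 11 both cKO values lay above both control values, and in 0 below, against 18.9% and 19.6% of all tested genes. The median log2 fold change was 1.09. The 11 are those left by the count filter, which Klk6 passed through its cKO counts. This list was also chosen with earlier results of these data known, so these counts are no test of it. Klk8 (1.91, edgeR adjusted p 0.502), Ctsl, a lysosomal cysteine protease (1.71, adjusted p 0.287), and Tmprss13 (1.63, adjusted p 0.494) had the next largest values. With 1 library left out, Klk8 ran from 1.45 to 2.83, Tmprss13 from 0.97 to 3.36 and Ctsl from 1.14 to 2.92, each lowest without control replicate 1 and highest without control replicate 2 (Klk8 could not be fitted without cKO replicate 1). Of these 3, Ctsl then passed the threshold, without cKO replicate 1 (edgeR adjusted p 0.0438) and without control replicate 2 (0.0270).

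Among 18 inhibitors of these proteases, 11 were tested and none was called by edgeR; 2 had an unadjusted p under 0.05 and were higher and 1 was lower, against 4.22% and 4.17% of all tested genes, DESeq2 called 1 (Cst6) and limma-voom 0. Of the 11, 5 had a log2 fold change above 0 and 6 below, with a median of -0.01. Both cKO values lay above both control values in 2 and below in 3 of the 11, and 6 overlapped. Cst6, a secreted inhibitor of cysteine proteases, had 1007 and 1426 counts in cKO against 435 and 642 (2.20, edgeR adjusted p 0.147). In CPM the cKO libraries of Cst6 were 4072 and 16026, and its log2 fold change was 0.90 without cKO replicate 2 (edgeR adjusted p 0.838) and 2.83 without cKO replicate 1 (0.000388). Serpina12 (-1.41, edgeR adjusted p 0.560) and Cstb (1.09, adjusted p 0.502) followed; Serpina12 was -2.95 without cKO replicate 1 (edgeR adjusted p 0.0174) and -0.34 without control replicate 2. Spint1 and Spint2, which encode inhibitors of matriptase and prostasin, are given for that role and were chosen after their values were seen. Spint2 had 101 and 52 counts in cKO against 164 and 283 (-0.86, edgeR adjusted p 0.638), and Spint1 had 5 and 3 against 10 and 16 (-1.04, edgeR adjusted p 0.880). For both, each cKO value in CPM was below each control value, as in 19.6% of all tested genes, and neither passed the threshold.

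Few genes of the last steps could be tested. Of 9 genes of amino acid breakdown 1 passed the filter, and edgeR, DESeq2 and limma-voom did not call it: Ggct, which releases pyroglutamic acid, had 269 and 46 counts in cKO against 35 and 124 (1.46, edgeR adjusted p 0.359, 0.0124 unadjusted). Ggct was 0.76 without cKO replicate 1 and 1.89 without cKO replicate 2 (edgeR adjusted p 0.0302). Uroc1, which breaks down urocanic acid in liver, had 0 counts in every library. Of 7 targets of matriptase and prostasin 1 was tested, Epcam (1.11, edgeR adjusted p 0.493, 0.0270 unadjusted). Epcam is also among 12 markers of macrophages and Langerhans cells, of which 5 were tested. Of these 5, Epcam was the 1 above 0 and 4 were below. The part of such cells in the value of Epcam was not tested. Of 23 regulators of filaggrin and its processing, 15 were tested and none was called by edgeR, DESeq2 or limma-voom. Over all tested genes edgeR called 0.660% higher and 0.189% lower. Of the 15, 0 had an unadjusted edgeR p under 0.05, where over all tested genes 4.22% were higher and 4.17% lower. At shares this low, 0 of 15 does not show that the regulators were unchanged. Their median log2 fold change was 0.03. Farthest from 0 were the transcription factors Ovol1 (-1.19, edgeR adjusted p 0.716), Tfap2c (-1.10, adjusted p 0.880) and Gata3 (-0.75, adjusted p 0.764).

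**Figure D4:**
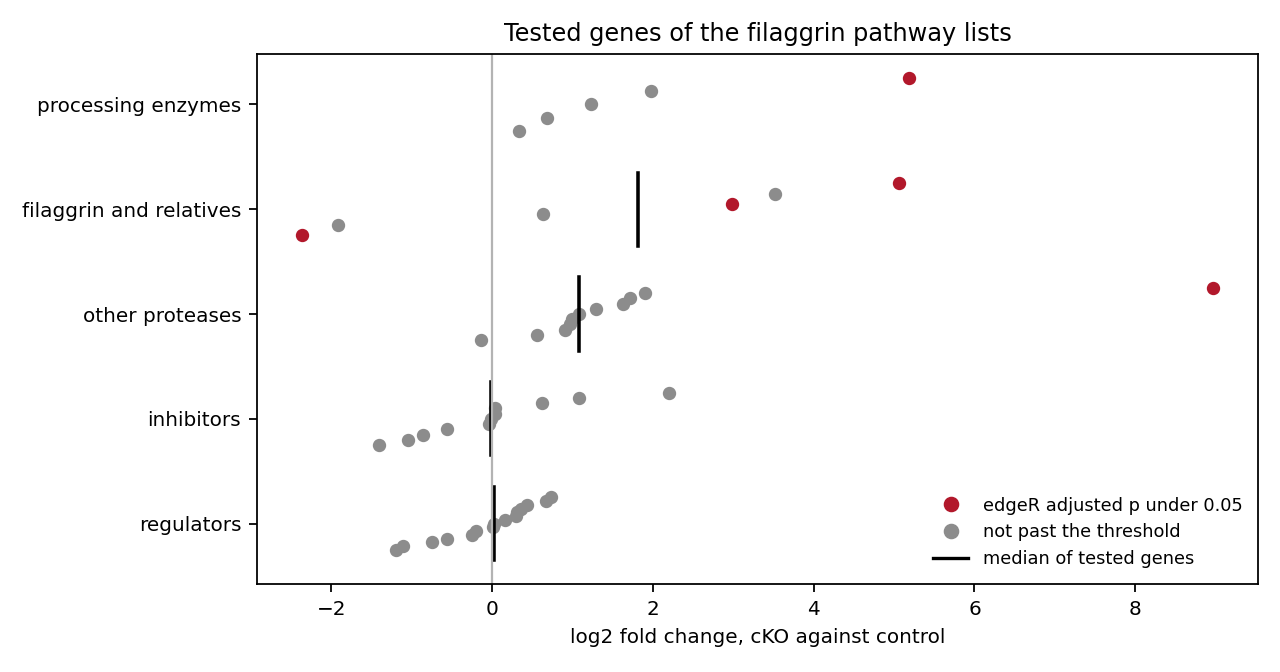
Log2 fold change, cKO against control, of each tested gene of the processing enzymes and of 4 lists around them; red points passed an edgeR adjusted p of 0.05 and black lines are medians (not drawn for the enzymes). Klk6, the point at the far right, had 0 counts in control, so that its fitted value is no measured size; inhibitors and regulators lie on both sides of 0.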

How the data were processed

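The 4 epidermal libraries were made with a 3' kit (QIAseq UPX), per the labels' protocols. The authors deposited 1 table of raw whole-number counts per gene; trimming, alignment and counting tools named in the submitters' processing notes are Trim Galore 0.6.7, Trimmomatic 0.39, cutadapt 3.7, STAR 2.7.10a and featureCounts 2.0.1, with GRCm39 as the genome. Options, use of strand, treatment of reads with several alignments and collapsing of molecular identifiers are not given in the sources used here. Groups follow the genotype in the sample titles.

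Counts were tested in edgeR 4.0.16 (R 4.3.3): filterByExpr (minimum count 10, minimum total 15) kept 4243 genes with 87.6% of counts; TMM factors ran from 0.833 to 1.12; glmQLFit and glmQLFTest had genotype as the only term, and Benjamini-Hochberg adjustment ran over all tested genes with a threshold of 0.05. Standard errors (SE) were derived from the log2 fold change and the F statistic (its size over the root of F). The fit was also run on simulated data with large changes only, so that run does not bear on changes as small as those of most enzymes here. The enzymes and lists were chosen with earlier results of these data known; 1 list gene is not reported here. All enzymes, Stim1, Stim2 and Flg are named; from each list, called genes are named with up to 3 others, those farthest from 0 on the log2 scale with a mean CPM of 10 or more. Exon overlap came from the deposited positions. Near copies were sought among GENCODE M21 transcripts with blastn (at least 95% identity over 100 bases); Padi1 and Prss8 matched their antisense neighbours Gm13032 and Kat8, Blmh matched 6 genes, and none was found for the other 6 enzymes or Flg. Alternatives were other scalings, filters, DESeq2 1.42.0, limma-voom 3.58.1, the glmQLFit legacy setting, a replicate block and each library left out. 0 per-sample columns were left unused.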

Additional observations from a re-analysis of the deposited data

How the results depend on the processing

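Of 73 values of the enzymes under alternatives, 64 kept their direction and side of the threshold, 2 lost the call (both Casp14), 5 gained one (4 for Asprv1, 1 for Blmh; 2 of these with crossed numbers, below) and 2 reversed. The reversals came with a library left out: Hal ranged from -0.046 to 1.73 and Prss8 from -0.37 to 2.28, as did, outside the enzymes, Flg2 (-0.081 to 2.22) and Tfap2c (-2.90 to 0.032); the cause was not tested. Casp14 could not be fitted without cKO replicate 1, nor St14 without control replicate 2, since they then fell under the filter. Scaling by library totals moved none of 14 group means by more than 1 SD, but an SD of 2 libraries is wide, so this check is weak. With that scaling the log2 fold changes were lower: Casp14 4.96 against 5.19, Asprv1 1.74 against 1.97 and Blmh 0.94 against 1.24. Hal was 0.45 against 0.68 and Prss8 0.09 against 0.33. The count of genes higher in cKO, 28, became 49 without a count filter, 12 in limma-voom, 16 with the replicate block and 34 to 59 with 1 library left out. The count of lower genes, 8, became 15 with library totals, 26 without a count filter, 15 with a mean of at least 10 CPM, 3 in limma-voom, 1 with the replicate block and 8 to 34 with 1 library left out. Without the 20 most abundant genes in the total, the summed share of the enzymes was 0.677%, 0.568%, 0.155% and 0.356% in cKO replicates 1 and 2 and control replicates 1 and 2.

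Labels do not say that the replicate numbers pair animals; the deviations of same-numbered libraries correlated at -0.163 over 4243 genes. With the replicate block, Casp14 (edgeR adjusted p 0.0522), Hrnr (0.281) and Tchhl1 (0.173) lost their calls, and Flg and Klk6 did not. A block with crossed numbers, chosen after seeing the data, called 90 genes higher and 57 lower. Removing Lor from the granular markers, also chosen after seeing the data, gave Hal 10.9 and 7.02 in cKO against 7.72 and 9.64, and Asprv1 32.8 and 21.1 against 6.26 and 13.0, per 100 marker counts. Depth limits Casp14, Prss8, St14 and the deiminases most.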
